A study of Zea mays with 4 samples.

Results

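Loci encoded in the mitochondrial and the plastid genome were examined in maize (Zea mays) endosperm, the storage tissue of the kernel. Members were taken by the chromosome named in each locus coordinate, with no limit on abundance: 51 entries named Mt, the mitochondrial genome, and 22 named Pt, the plastid genome, of 29642 entries in all. The libraries came from endosperm collected 15 days after pollination (15 DAP) from wild type (WT) and from the rea1 mutant; the labels do not state the mutated gene, the allele or the genetic background. For each genotype there was 1 library of total RNA and 1 of polysome-bound RNA, the ribosome pellet spun through a sucrose cushion, 4 libraries in all. Each value was an FPKM, a fragment count divided by transcript length and by the library's mapped fragments, so all levels below are per length and relative to their own library.

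Both organelles descend from free-living bacteria and keep small genomes of their own. The mitochondrial genome of plants encodes core subunits of the respiratory chain and of ATP synthase, factors for attaching haem to cytochrome c, and part of the organelle's own ribosome; the plastid genome encodes photosynthesis subunits, an RNA polymerase and part of the plastid ribosome. Organelle messenger RNAs are translated inside the organelle by bacterial-type ribosomes, and in plants they carry no stable poly(A) tail. Endosperm plastids are mainly starch-storing amyloplasts with no photosynthesis. The labels do not say whether poly(A) RNA was selected for these libraries, and the described extraction has no step that separates cytosolic from organelle ribosomes, so the part of either in the levels below was not tested.

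Gene names came from matching coordinates to the organelle genes of the RefSeq table for assembly Zm-B73-REFERENCE-NAM-5.0. Of the 51 mitochondrial entries, 24 had the exact start and end of an annotated gene, 25 held most of at least 1 gene, 1 touched a part of nad2 and 1 lay where the table has no gene. Of the 22 plastid entries, 4 matched a gene exactly, 17 held genes and 1 covered a part of rpl16. Exact matches at both ends show that the deposited organelle coordinates follow the sequence used by that table, counted from 0 at the start; positions are given here counted from 1, on the organelle sequences of B73 RefGen_v3. Several entries shared coordinates with another, so the 51 mitochondrial entries stood for 49 distinct places and the 22 plastid entries for 16. Well-known mitochondrial genes such as cox1, atp1, nad3 and the ribosomal RNA genes were matched by no entry and were not analysed here.

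Organelle levels were very low. The 51 mitochondrial entries summed to 19.0 FPKM in WT total RNA, 30.8 in rea1 total RNA, 5.01 in WT polysome-bound RNA and 12.4 in rea1 polysome-bound RNA. Those sums were 0.00195%, 0.00353%, 0.000559% and 0.00146% of all FPKM of the library, in the same order. The plastid entries summed to 0.150, 1.63, 0.0791 and 1.96 FPKM. By mean level over the libraries, mitochondrial entries ranked from 9768 to 29633 of 29642, and 1 of 51 had a mean of at least 1 FPKM, against 17681 of the 29569 other entries, which lie on the chromosomes and scaffolds and are called nuclear below. All 22 plastid entries had a mean under 1 FPKM.

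**Figure D1:**
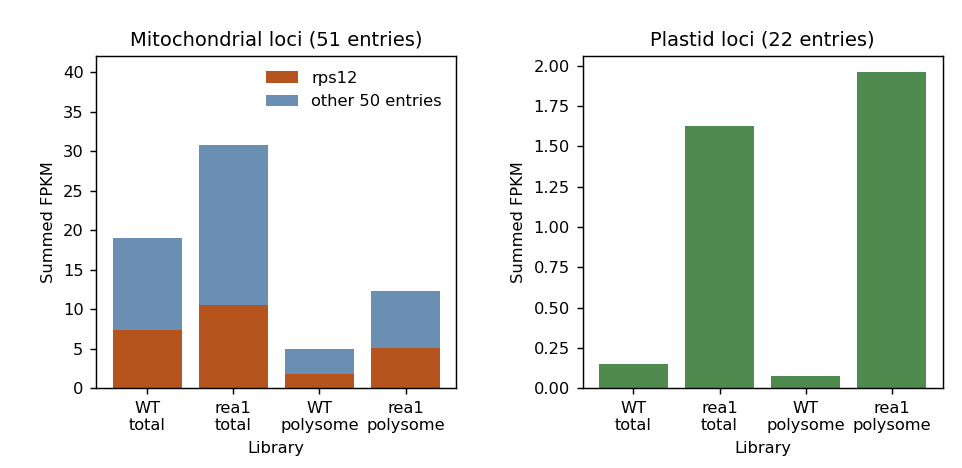
Summed FPKM (vertical axes, linear, different ranges) of the mitochondrial entries (left, with rps12 in orange and the other 50 entries in blue) and of the plastid entries (right) in each of the 4 libraries, 1 library per bar and so without error bars. The mitochondrial sum is lowest in WT polysome-bound RNA, at 5.01 FPKM, and the plastid sums of both WT libraries lie under those of both rea1 libraries.

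With 1 library in each group there is no spread between replicates and no error on a single value, and a difference between 2 single libraries was not tested. A fit over all 4 libraries tests RNA fraction with genotype as a block, or genotype with RNA fraction as a block, for loci whose mean reached 1 FPKM. Read totals were not given, and FPKM alone does not give counts. A sense of the precision came from nuclear loci of similar length (within 10%): the 5th percentile of their values above 0 marks about the smallest value a library could give at that length. Among mitochondrial entries of up to 1500 bp, values above 0 lay under 3 times that level in 13 of 18 cases in WT total, 17 of 25 in rea1 total, 8 of 10 in WT polysome-bound and 14 of 18 in polysome-bound RNA of rea1. All 4 such plastid values lay under 1.5 times it. These lengths cover 34 of the 51 mitochondrial and 4 of the 22 plastid entries; longer entries were not compared with such a level. Most of the values compared thus stood close to the lowest that could be seen, and an entry listed at 0 was not detectable at this depth rather than absent. The files list no locus at 0 in all 4 libraries, so shares of entries above 0 refer to loci seen at least once.

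The most abundant mitochondrial locus was rps12, at Mt 262384-262761, which encodes a protein of the small mitochondrial ribosomal subunit. It stood at 7.38 FPKM in WT total, 10.5 in rea1 total, 1.82 in WT polysome-bound and 5.12 in polysome-bound RNA of rea1. These values were 15.6, 24.3, 5.04 and 17.6 times the 5th percentile of nuclear loci of its length, so this locus was well above the lowest levels in every library. It held between 34.1% and 41.4% of the mitochondrial sum in the 4 libraries. Its polysome-bound level was below its total level in both genotypes, with a ratio of 0.247 in WT and 0.487 in rea1. Its rea1 level was above the WT level in both RNA fractions, by 1.42-fold in total and 2.81-fold in polysome-bound RNA, as deposited. With the other scalings the ratio in total RNA turned to between 0.755 and 0.854, while that in polysome-bound RNA was between 2.17 and 2.35. Of all organelle loci, rps12 was the only 1 abundant enough (mean of at least 1 FPKM) to enter the fit of polysome-bound against total RNA over both genotypes. In that fit (limma, genotype as a block, log2(FPKM + 1), 1 residual degree of freedom) it was lower in polysome-bound RNA by a log2 difference of -1.24 (SE 0.325, adjusted p = 0.0175, lower in 2 of 2 genotypes). Of the 17682 loci fitted, 7.4% were called lower. The call was lost with every other scaling, with log2 differences between -1.05 and -0.97 and adjusted p between 0.0755 and 0.111, and without the filter on low loci, with the same difference of -1.24 and an adjusted p of 0.116. For genotype, with RNA fraction as a block in the same limma fit, rps12 was higher in rea1 by a log2 difference of 0.79 (SE 0.325, adjusted p = 0.133, higher in 2 of 2 RNA fractions), which did not pass the threshold, where 3.91% of the loci fitted were called higher. With the other scalings that difference was between 0.25 and 0.37, at adjusted p between 0.618 and 0.753.

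**Figure D2:**
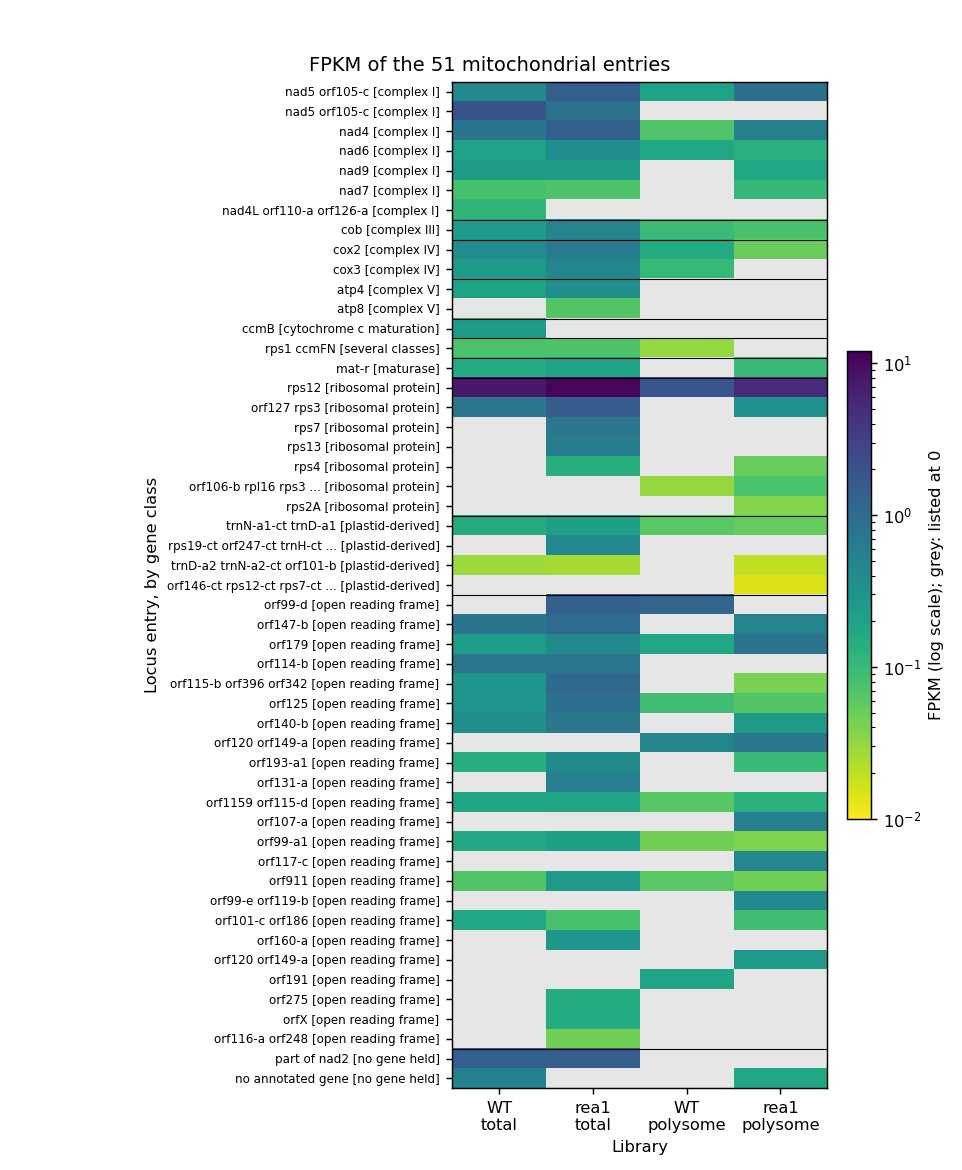
FPKM (colour, log scale, grey where listed at 0) of the 51 mitochondrial entries (rows, ordered by gene class and then by mean level) in the 4 libraries (columns). The rps12 row is the darkest in every column, and the WT polysome column has the most grey cells, with 18 entries above 0.

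Complex I, the NADH dehydrogenase that feeds electrons into the respiratory chain, was the best represented respiratory complex, with 7 entries. Together they summed to 3.79 FPKM in WT total, 4.31 in rea1 total, 0.434 in WT polysome-bound and 1.85 in polysome-bound RNA of rea1. WT polysome-bound RNA stood apart as the lowest of the 4 libraries, with 3 of the 7 entries above 0. The polysome-to-total ratio of the summed levels was 0.115 in WT and 0.430 in rea1. The nad4 gene (Mt 76132-84976) stood at 0.793 FPKM in WT total, 1.33 in rea1 total, 0.0695 in WT polysome-bound and 0.562 in polysome-bound RNA of rea1. Its ratio of polysome-bound to total RNA was thus 0.0875 in WT, the lowest of the mitochondrial entries above 0 in both WT libraries, and 0.423 in rea1. The place that holds nad5 (Mt 204632-207081) was listed as 2 entries, whose levels are uncertain singly because they may divide the same reads. Added together they gave 2.34 FPKM in WT total, 2.28 in rea1 total, 0.195 in WT polysome-bound and 0.879 in polysome-bound RNA of rea1. The ratio of rea1 over WT was 0.975 in total RNA and 4.51 in polysome-bound RNA as deposited. With the other scalings it was between 0.517 and 0.585 in total and between 3.48 and 3.76 in polysome-bound RNA. Taken singly, 1 of the 2 was listed at 0 in both polysome libraries, with 1.93 FPKM in WT total and 0.852 in rea1 total RNA, and the other was at 0.416 and 1.43 FPKM.

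The remaining complex I loci lay lower. The nad6 gene (Mt 565003-565665) was at 0.206, 0.380, 0.170 and 0.134 FPKM in WT total, rea1 total, WT polysome-bound RNA and polysome-bound RNA of rea1. Its polysome-to-total ratio was the highest of complex I in WT, at 0.824. In the same order of libraries, nad9 (Mt 101544-102116) was at 0.254, 0.242, 0 and 0.173 FPKM. The nad7 gene (Mt 237577-243574) was at 0.0789, 0.0719, 0 and 0.106 FPKM. Both were listed at 0 in WT polysome-bound RNA alone, and nad7 was, at these low levels, higher in polysome-bound than in total RNA of rea1. The entry over nad4L was above 0 in WT total RNA only, at 0.116 FPKM. A short locus at Mt 509973-510266 that overlaps a part of nad2 was at 1.43 FPKM in WT total and 1.39 in rea1 total RNA and was listed at 0 in both polysome libraries.

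Entries of the other respiratory complexes were few. Apocytochrome b, the core of complex III (cob, Mt 310906-312072), stood at 0.245 FPKM in WT total, 0.504 in rea1 total, 0.0954 in WT polysome-bound and 0.0771 in polysome-bound RNA of rea1. The locus that holds cox2, a subunit of cytochrome c oxidase (complex IV; Mt 541369-545055), stood at 0.388, 0.651, 0.154 and 0.0510 FPKM in the same order. For both genes each polysome-bound level was below each total level. The cox3 locus (Mt 441570-442510), for another oxidase subunit, was at 0.251, 0.464 and 0.104 FPKM, while its value in polysome-bound RNA of rea1 was 0. ATP synthase, complex V, had 2 entries, and neither was above 0 in polysome-bound RNA of either genotype. Of them, atp4 (Mt 138553-139212) was at 0.200 FPKM in WT total and 0.369 in rea1 total RNA, and the atp8 locus was at 0.0662 FPKM in rea1 total RNA alone. The cytochrome c maturation gene ccmB was above 0 in WT total RNA alone, at 0.250 FPKM. The locus with mat-r, an intron maturase, was at 0.159 FPKM in WT total, 0.202 in rea1 total, 0 in WT polysome-bound and 0.0975 in polysome-bound RNA of rea1.

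Of the 7 ribosomal protein entries, rps12 among them, 2 were above 0 in each WT library and 5 in each rea1 library. Over all loci, 87.1% and 85.9% were above 0 in WT total and polysome-bound RNA, and 90.2% and 87.3% in those of rea1. Entries at 0 in both WT libraries were listed only through rea1, since no locus is listed at 0 in all 4 libraries. The rps7, rps13 and rps4 genes, all of the small subunit, were listed at 0 in both WT libraries and stood at 0.723, 0.616 and 0.142 FPKM in rea1 total RNA. Only rps4 of these was above 0 in rea1 polysome-bound RNA, at 0.0513 FPKM. The rea1 total values of rps7, rps13 and rps4 were 2.37, 1.20 and 1.47 times the 5th percentile of nuclear loci of their lengths. The locus with rpl16 and a part of rps3 (Mt 160501-164661) was above 0 in the polysome libraries alone, at 0.0305 FPKM in WT and 0.0742 in rea1. A second locus with a short part of rps3 beside orf127 (Mt 63562-64041) reached 0.734 FPKM in WT total, 1.52 in rea1 total and 0.346 in rea1 polysome-bound RNA and was listed at 0 in WT polysome-bound RNA. The rps2A gene was above 0 in rea1 polysome-bound RNA alone, at 0.0378 FPKM.

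Open reading frames of no assigned function made up 23 of the 51 mitochondrial entries. They summed to 3.40 FPKM in WT total, 8.61 in rea1 total, 2.28 in WT polysome-bound and 4.41 in polysome-bound RNA of rea1. Their polysome-to-total ratio in WT, 0.671, was above the 0.115 of complex I, but 1.20 of the 2.28 FPKM came from orf99-d. That frame (Mt 138031-138330) was at 1.35 FPKM in rea1 total and 1.20 in WT polysome-bound RNA and was listed at 0 in WT total and rea1 polysome-bound RNA, so its values followed neither genotype nor RNA fraction. The orf179 locus (Mt 261340-261951), next to rps12, was at 0.228 FPKM in WT total, 0.430 in rea1 total, 0.178 in WT polysome-bound and 0.774 in polysome-bound RNA of rea1. In rea1 it was higher in polysome-bound than in total RNA, by 1.80-fold. The orf147-b frame (Mt 356474-356917) was at 0.765, 1.01 and 0.504 FPKM in WT total, rea1 total and rea1 polysome-bound RNA, and was listed at 0 in WT polysome-bound RNA. The orf114-b frame (Mt 271154-271498) was at 0.739 FPKM in WT total and 0.735 in rea1 total RNA and was listed at 0 in both polysome libraries. The locus with orf396, orf342 and orf115-b (Mt 21090-22698) was at 0.284, 1.06 and 0.0411 FPKM in WT total, rea1 total and rea1 polysome-bound RNA, again with 0 in WT polysome-bound RNA.

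Another 4 mitochondrial entries held genes whose names end in ct, which marks plastid sequence carried in the mitochondrial genome. They summed to 0.181 FPKM in WT total, 0.673 in rea1 total, 0.0621 in WT polysome-bound and 0.0870 in polysome-bound RNA of rea1. Fragments of such copies can match both organelle genomes, and the labels do not say how they were assigned.

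The comparison of polysome-bound with total RNA within a genotype asks which transcripts are over- or under-represented in the ribosome pellet. Mitochondrial transcripts were lower there in WT. The mitochondrial sum had a ratio of 0.264, against 0.894 for the sum of the 11888 nuclear loci with a mean under 1 FPKM and 0.917 for all nuclear loci. Of the 14 mitochondrial entries above 0 in both WT libraries, all 14 had a lower level in polysome-bound RNA, and 11 were at least 2-fold lower, where 15.6% of all loci above 0 in both were. Over all loci above 0 in both, 54.8% were lower. None of the 14 was 2-fold higher, where 10.7% of all loci were. The 3 that were lower by less than 2-fold were orf911, orf179 and nad6, with ratios of 0.890, 0.779 and 0.824. Another 17 entries (33.3% of the 51) were above 0 in total RNA alone and 4 (7.84%) in polysome-bound RNA alone, against 16.8% and 14.4% of low nuclear loci. Over all loci these shares were 7.18% and 5.97%. The median ratio of the 14 was 0.402, against 0.936 for all loci and 0.848 for low nuclear loci. Of low nuclear loci above 0 in both WT libraries, 55.7% were lower in polysome-bound RNA. A fall of 2-fold or more was found in 25.3% of them, a rise of that size in 19.3%. Without rps12 the ratio of the sums was 0.274.

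In rea1 the mitochondrial sum was also lower in polysome-bound RNA, with a ratio of 0.401, but low nuclear loci were lower there too, at 0.532. Of 23 entries above 0 in both rea1 libraries, 16 were lower by 2-fold or more in deposited FPKM, as were 32.2% of all loci, and 0 were higher by that much, as were 6.23%. The 3 entries with a higher level in polysome-bound RNA were nad7, orf179 and the locus with orf101-c; the other 20 (87.0%) were lower by any amount, as were 75.8% of all loci. The median ratio was 0.360, against 0.671 for all loci and 0.593 for low nuclear loci. Of low nuclear loci above 0 in both rea1 libraries, 72.4% were lower in polysome-bound RNA. A fall of 2-fold or more was found in 44.0% of them, a rise of that size in 11.2%. With the other scalings the ratio of the sums lay between 0.575 and 0.599 in rea1 and between 0.259 and 0.283 in WT, so it stayed below 1 in both genotypes.

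On the log2(FPKM + 1) scale used for the abundant loci, few of the 51 entries could pass 2-fold, because a pseudocount of 1 exceeds most of their values. There, 3 entries were at least 2-fold lower in WT polysome-bound RNA (rps12, a nad5 entry and the nad2 part), against 4.64% of all loci, and 1, orf99-d, was at least 2-fold higher, against 2.96%. In rea1, 2 entries were lower (the nad2 part and orf99-d), against 13.6% of all loci, and 0 were higher, against 1.96%.

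**Figure D3:**
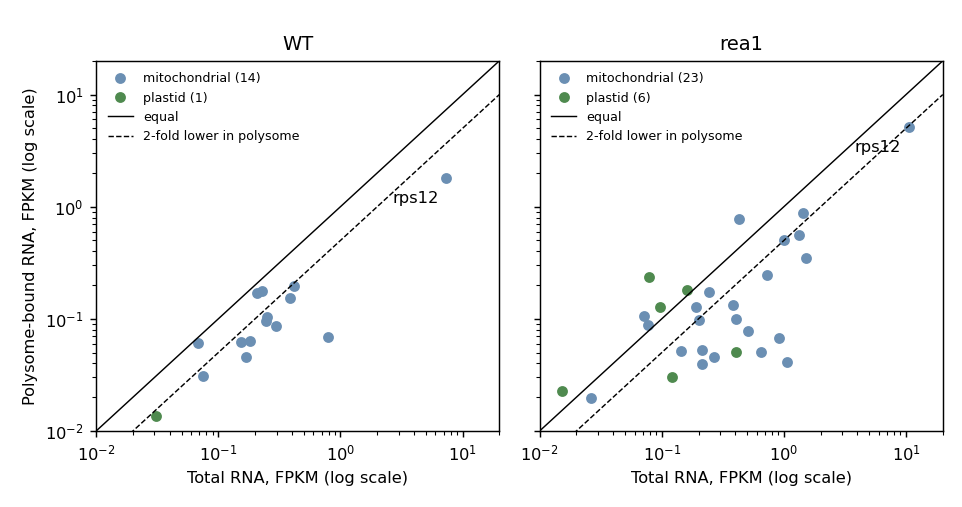
FPKM in polysome-bound RNA (vertical, log scale) against FPKM in total RNA (horizontal, log scale) for organelle entries above 0 in both libraries of WT (left) and rea1 (right); each point is 1 entry, the solid line marks equal levels and the dashed line a level 2-fold lower in polysome-bound RNA. All 14 mitochondrial points of WT lie under the solid line, and 20 of 23 do in rea1, where 54.8% and 75.8% of all loci above 0 in both libraries were lower in polysome-bound RNA.

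The comparison of rea1 with WT asks how the mutant differs in each RNA fraction. In total RNA the mitochondrial sum was 1.62-fold higher in rea1 as deposited, which is close to the 1.65-fold of nuclear loci with a mean under 1 FPKM. Of 28 mitochondrial entries above 0 in both total RNA libraries, 8 were at least 2-fold higher in rea1, where 35.7% of all loci were, and 2 were at least 2-fold lower, where 5.33% were. Those higher were orf911, orf125, orf193-a1, orf140-b, the locus with orf396, the locus with orf127, a nad5 entry and cob; those lower were the other nad5 entry and the locus with orf101-c. The median ratio was 1.55, against 1.64 for all loci and 1.51 for low nuclear loci. A rise of 2-fold or more was found in 37.9% of low nuclear loci above 0 in both, a fall of that size in 11.5%. FPKM is relative to the library, and the mitochondrial ratio fell to between 0.860 and 0.973 with the other scalings, which turns its direction. On log2(FPKM + 1), 1 entry (orf99-d) was at least 2-fold higher in rea1, where 16.8% of all loci were, and 0 were lower, where 1.3% were.

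In polysome-bound RNA the mitochondrial sum was 2.47-fold higher in rea1, and between 1.91-fold and 2.06-fold with the other scalings. Low nuclear loci were at 0.983 as deposited. Of the 51 entries, 18 (35.3%) were above 0 in rea1 polysome-bound RNA alone and 4 (7.84%) in WT polysome-bound RNA alone, against 14.9% and 11.9% of low nuclear loci. The same shares over all loci were 6.32% and 4.91%. Those 18 held 3.66 of the 12.4 FPKM of rea1, and the 4 held 1.52 of the 5.01 FPKM of WT. Of the 14 above 0 in both, 6 were at least 2-fold higher in rea1, where 11.1% of all loci were, and 1, the cox2 locus, was at least 2-fold lower, where 7.54% were. The 6 were nad4 at 8.10-fold, a nad5 entry at 4.51-fold, orf179 at 4.36-fold, rps12 at 2.81-fold, the locus with rpl16 at 2.44-fold and the locus with orf1159 at 2.04-fold. The median ratio of the 14 was 1.21, against 1.19 for all loci and 0.971 for low nuclear loci. Of the 14, 7 were higher and 7 lower in rea1. The share lower by any amount was 34.4% over all loci and 52.6% over low nuclear loci. A rise of 2-fold or more was found in 18.0% of low nuclear loci, a fall of that size in 19.6%. Without rps12 the sum was 2.27-fold higher in rea1. On log2(FPKM + 1), rps12 was the 1 entry at least 2-fold higher in rea1, where 2.48% of all loci were, and orf99-d the 1 entry at least 2-fold lower, where 0.914% were.

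As deposited, the polysome-to-total ratio of the mitochondrial sum was 1.52 times as large in rea1 as in WT, and 1.30 times without rps12. For nuclear loci with a mean under 1 FPKM it was 0.595 times as large, also as deposited. These values depend on the scaling, which shifts all loci of a library alike. With the other scalings the mitochondrial ratio itself lay between 0.575 and 0.599 in rea1 and between 0.259 and 0.283 in WT. Among the 12 mitochondrial entries above 0 in all 4 libraries, the ratio was at least 2-fold higher in rea1 in 2 (nad4 and orf179), where 5.91% of all loci were, and at least 2-fold lower in 5, where 25.6% were. On log2(FPKM + 1), the ratio was past 2-fold upward in rea1 for 0 of 51 entries, where it was for 1.52% of all loci, and past 2-fold downward for orf99-d alone, where it was for 10.5%. These comparisons share libraries, and none of these differences between ratios was tested, because each genotype had 1 library per RNA fraction.

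**Figure D4:**
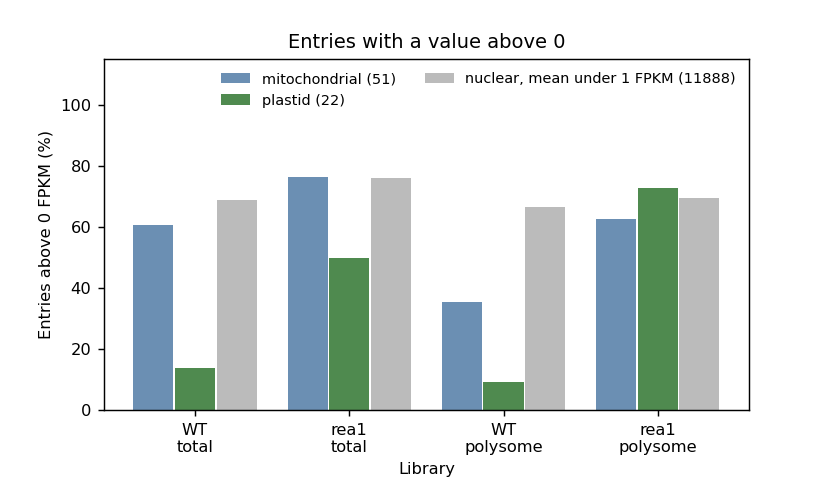
Share of entries above 0 FPKM (vertical, percent) in each of the 4 libraries for mitochondrial entries (blue), plastid entries (green) and nuclear entries with a mean under 1 FPKM (grey). Mitochondrial entries are least often above 0 in WT polysome-bound RNA, and plastid entries are above 0 in 11 and 16 of 22 cases in the rea1 libraries against 3 and 2 in the WT libraries.

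Mitochondrial entries were least often above 0 in WT polysome-bound RNA. They were above 0 in 31 of 51 cases in WT total (60.8%), 39 in rea1 total (76.5%), 18 in WT polysome-bound (35.3%) and 32 in polysome-bound RNA of rea1 (62.7%). Low nuclear loci were above 0 in 68.9%, 76.2%, 66.6% and 69.5% of cases in the same order. The WT polysome library was thus the 1 in which the mitochondrial share was farthest below that of low nuclear loci. Lengths were not matched here, with a median locus span of 825 bp for mitochondrial entries. That of all nuclear loci was 3240 bp, and it was not taken for the low ones alone. The part of length in these shares was not tested. Of the 51 entries, 12 (23.5%) were above 0 in all 4 libraries, against 43.3% of low nuclear loci and 76.2% of all loci. Another 18 (35.3%) were above 0 in a single library, against 22.1% and 9.06%. Of these 18, 9 were in rea1 total, 6 in rea1 polysome-bound, 2 in WT total and 1 in WT polysome-bound RNA.

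The plastid entries were seen mostly in the mutant. They were above 0 in 3 of 22 cases in WT total, 2 in WT polysome-bound, 11 in rea1 total and 16 in rea1 polysome-bound RNA. The summed level was 10.8-fold higher in rea1 in total RNA and 24.8-fold higher in polysome-bound RNA. With the other scalings these were between 5.745 and 6.50 and between 19.1 and 20.7, so rea1 was higher under each. The WT sums were 0.150 and 0.0791 FPKM from 3 and 2 entries, so the folds rest on few low WT values. The files list no locus at 0 in all 4 libraries. Listed only through rea1 were thus 9 entries (40.9%) in its polysome-bound RNA alone, 5 (22.7%) in its total RNA alone and 4 (18.2%) in both. The same shares over all loci were 1.95%, 3.54% and 1.42%, and over low nuclear loci 4.70%, 8.57% and 3.38%. Through WT alone, 1 entry (4.55%) was listed, in polysome-bound RNA, against 1.68% of all loci and 4.16% of low nuclear loci. The counts and folds above were in part fixed by that rule, which also holds for low nuclear loci. Low nuclear loci were above 0 more often in rea1 as well, by the smaller margins given above; the part of sequencing depth in the plastid difference was not tested. Of the 22 entries, 15 (68.2%) were above 0 in a single library, against 22.1% of low nuclear loci and 9.06% of all loci. Of these 15, 9 were in rea1 polysome-bound and 5 in rea1 total RNA; 1 of the 22 was above 0 in all 4 libraries. In rea1 the plastid sum was 1.20 times as large in polysome-bound as in total RNA, and in WT 0.527 times.

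**Figure D5:**
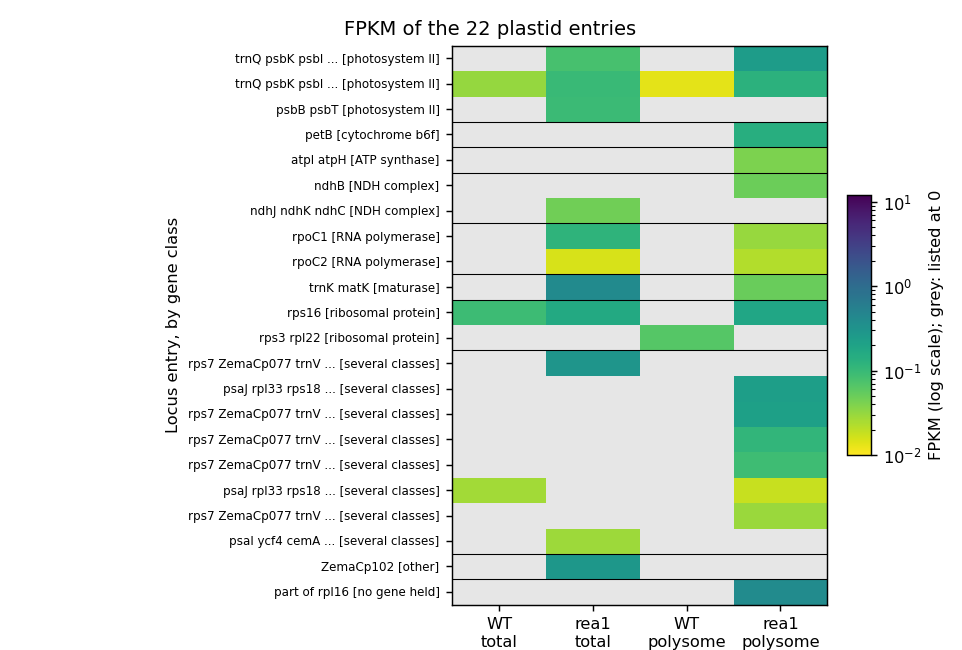
FPKM (colour, log scale, grey where listed at 0) of the 22 plastid entries (rows, by gene class, repeated names being entries that share coordinates) in the 4 libraries (columns). Colour is found mostly in the rea1 columns, with 11 entries in total and 16 in polysome-bound RNA, and no value exceeds 0.406 FPKM.

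The plastid values of rea1 were spread over several gene classes. The highest single value was that of the locus with matK, the plastid intron maturase (Pt 1674-3308), at 0.406 FPKM in rea1 total and 0.0502 in rea1 polysome-bound RNA, with 0 in both WT libraries. The rps16 locus (Pt 3363-5604), for a protein of the small ribosomal subunit, was at 0.0927 FPKM in WT total, 0.160 in rea1 total, 0 in WT polysome-bound and 0.180 in polysome-bound RNA of rea1. The locus over a part of rpl16, for a large-subunit protein (Pt 79519-79881), was seen in rea1 polysome-bound RNA alone, at 0.392 FPKM. The psbK to psbZ region of photosystem II genes (Pt 6392-15097) was listed as 2 entries, which summed to 0.0310 FPKM in WT total, 0.176 in rea1 total, 0.0135 in WT polysome-bound and 0.364 in polysome-bound RNA of rea1. The genes rpoC1 and rpoC2, for subunits of the plastid RNA polymerase, were above 0 in both rea1 libraries and in neither WT library, with 0.121 and 0.0154 FPKM in rea1 total and 0.0303 and 0.0225 FPKM in rea1 polysome-bound RNA.

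A long locus of 39432 bp (Pt 91653-131084) was listed as 5 entries that summed to 0.299 FPKM in rea1 total and 0.443 in rea1 polysome-bound RNA and to 0 in both WT libraries. It holds a copy of rps7 and ribosomal RNA genes. The table names rps7, ndhB and further plastid genes at 2 places each, and fragments from such copies cannot be assigned to 1 of them. The ndhB gene (Pt 131265-133501), of the plastid NDH complex, was seen in rea1 polysome-bound RNA alone, at 0.0493 FPKM. The rps3 and rpl22 locus (Pt 81113-82518) was the 1 entry above 0 in WT polysome-bound RNA alone, at 0.0656 FPKM.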

How the data were processed

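RNA of endosperm was measured in 4 libraries, 1 per group. The authors deposited 1 FPKM value per locus, per the file headers; Bowtie 0.12.2 and B73 RefGen_v3 are named in the submitters' processing notes, while no source used here names the FPKM program, the annotation or any poly(A) selection. The series text mentions triplicates, but each file holds 1 value per locus. Members and gene lists were chosen with earlier results of these data known. Names came from RefSeq organelle genes (exact ends, or at least 50% of a gene held). Named mitochondrial loci were the 10 most abundant, those at 0 in some libraries and at least 1 FPKM in another, and extremes of gene classes; named plastid loci were the 5 most abundant. Further loci named in counts or as exceptions were chosen after their values were seen. Sums and ratios used deposited FPKM; 2-fold counts used log2(FPKM + 1) without a filter, and, added after seeing the data, deposited FPKM above 0. The limma 3.58.1 fit (R 4.3.3, trended eBayes, Benjamini-Hochberg over 17682 loci whose mean reached 1 FPKM) was tested on simulated polysome-bound against total RNA: 100% of 200 loci set 4-fold lower were recovered and 10 unchanged loci called; for the genotype term, a test added after seeing the data, 100% of 200 loci set 4-fold higher in rea1 were recovered and 5 unchanged loci called, each with a noise of 0.3 (log2 SD). In both simulations the loci set as changed were more abundant than rps12 (mean 6.21 FPKM), so the recovery does not cover any organelle locus. Other scalings were median of ratios, trimmed mean (30% off each side) and the sum without the 50 most abundant loci. Python 3.11.15, numpy 2.4.6, pandas 2.3.3 and matplotlib 3.10.9 were used.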

Additional observations from a re-analysis of the deposited data

Results flagged for a closer look

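Each of these results moved in opposite directions in the groups compared; none of the differences was tested, because every group had a single library. The polysome-to-total ratio of the plastid sum was 0.527 in WT and 1.20 in rea1. That of plastid photosystem II entries was 0.435 and 1.34, that of plastid ribosomal protein entries 0.707 and 1.12, and that of the psbK to psbZ entry above 0 in all libraries 0.435 and 1.30. The 0.707 sets 1 locus against another and is the ratio of no single locus. In WT total RNA only rps16 was above 0 (0.0927 FPKM), and in WT polysome-bound RNA only the rps3 and rpl22 locus (0.0656 FPKM). The mitochondrial orf179 locus had ratios of 0.779 in WT and 1.80 in rea1. For the ratio of rea1 over WT, the value in total and then in polysome-bound RNA was 2.06 and 0.808 for cob (the single complex III entry), 1.74 and 0.198 for both complex IV entries together, and 1.68 and 0.331 for the cox2 locus. It was 1.85 and 0.789 for nad6, 3.08 and 0.773 for orf125, 3.94 and 0.760 for orf911, 1.28 and 0.877 for orf99-a1, and 1.39 and 0.854 for the locus with trnD-a1. All these ratios are as deposited. With every other scaling the total RNA ratio turned below 1 for orf99-a1 (0.679 to 0.769) and the trnD-a1 locus (0.737 to 0.834), so the directions were no longer opposite. With the sum without the 50 most abundant loci alone it did so for complex IV (0.925), cox2 (0.889) and nad6 (0.979). The opposite directions of the other results held under each scaling.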

How the results depend on the processing

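Ratios of sums were taken as moved when they changed by 1.5 times or more, since no counting interval could be computed. The mitochondrial ratio of rea1 over WT in total RNA turned from 1.62 to 0.972 (median of ratios), 0.973 (trimmed mean) and 0.860 (sum without the 50 most abundant loci). The plastid one moved from 10.8 to 6.49, 6.50 and 5.745. No other ratio of sums turned or moved by that limit. Just under it were the ratios of polysome-bound over total RNA in rea1. With the trimmed mean the mitochondrial one went from 0.401 to 0.599 and the plastid one from 1.20 to 1.80. Counts of mitochondrial entries on log2(FPKM + 1) were small and depended on the settings. Lower in WT polysome-bound RNA were 3; 18 and 0 with a pseudocount of 0.1 and 5, 1 with a mean of at least 1 FPKM, 8 at 1.5-fold and 11 without pseudocount. Lower in rea1 polysome-bound RNA were 2, and 0 with each other scaling, a pseudocount of 5 or the mean filter, 26 with 0.1, 12 at 1.5-fold and 16 without pseudocount. Higher in rea1 total RNA was 1, and 0 with each scaling, a pseudocount of 5 or the mean filter, 14 with 0.1, 6 at 1.5-fold and 8 without pseudocount. Higher in rea1 polysome-bound RNA was 1, and 0 with each scaling or a pseudocount of 5, 14 with 0.1, 5 at 1.5-fold and 6 without pseudocount. A higher polysome-to-total ratio in rea1 was found for 0, and for 2 with each scaling and without pseudocount, 14 with 0.1 and 4 at 1.5-fold. The limma fit called 1 mitochondrial locus lower, 0 with each scaling and at a mean of at least 10 FPKM, where no organelle locus was left, and 3 without a filter, which were other loci than rps12. Those 3 were the nad2 part, a nad5 entry and orf114-b, each listed at 0 in both polysome libraries. Without a filter, 478 of 29569 nuclear loci were called lower. For genotype, added after seeing the data, that fit called 0 mitochondrial loci higher in rea1 (1 at an unadjusted p under 0.05) and 0 under each alternative. The causes were not tested. Low levels limit every organelle value but that of rps12. The limma fits have the other factor, genotype or RNA fraction, as a block; the labels give no replicate numbers, so no pairing by replicate was made.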
